A study of Mus musculus with 3 samples.

Results

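The genes that write, copy, read and erase DNA methylation were followed in midbrain of 3-day-old mice. They are the DNA methyltransferase genes Dnmt1, Dnmt3a and Dnmt3b, the dioxygenase genes Tet1, Tet2 and Tet3, Uhrf1, and the reader genes Mbd1 and Mbd2. The 9 genes were taken by symbol from the 49585 genes listed for each library, and each symbol had 1 entry. All 9 passed the filter on low counts. Expression was measured by RNA sequencing of total RNA from frozen tissue of C57BL/6 mice at postnatal day 3. There was 1 library of wild-type genotype (WT) and 2 whose genotype is given as FGR, a name the labels do not spell out. No treatment, sex, litter or pooling is given, and the labels do not say whether the FGR libraries came from separate animals. Levels of Xist and of Y-linked genes, given below, differed between the FGR libraries, so these were not repeats of the same RNA. The p-values speak only to the spread among these samples. Total counts ran from 46240262 to 58444481.

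Cytosine methylation at CG dinucleotides is set on new sites by Dnmt3a and Dnmt3b. It is carried through DNA replication by Dnmt1, which Uhrf1 brings to the half-methylated sites behind the replication fork. The TET enzymes oxidise 5-methylcytosine to 5-hydroxymethylcytosine and further products, which can be lost by dilution or removed by base excision repair. Methyl-CpG binding proteins such as Mbd1 and Mbd2 bring repressor complexes to methylated sites. In the postnatal brain Dnmt3a is known for methylating neuronal DNA outside CG sites as well, and hydroxymethylcytosine accumulates as neurons mature. Dnmt1 and Uhrf1 are best known from dividing cells, although postmitotic neurons keep Dnmt1.

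Markers of regions and cell types differed between the libraries, and in bulk RNA fewer cells of a type and less RNA per cell cannot be told apart. Of 14 regional genes of the midbrain, all were detected and tested, with summed levels in CPM (counts scaled to library size, with TMM factors) of 365.4 in WT and 500.3 and 434.8 in FGR replicates 1 and 2. Hypothalamic and ventral forebrain genes summed to 64.04 CPM in WT and to 13.8 and 14.1 CPM in FGR. Of the 14 in this list, 12 were below WT in both FGR libraries, against 38.2% of all tested genes. Nkx2-4, for 1, was at 4.87 CPM in WT and 0 in both. The remaining 2 were above WT in both, against 38.5%, namely Otp (2.90, 3.78 and 3.78 CPM) and Six3 (5.61, 6.28 and 6.37 CPM). Meningeal and fibroblast genes summed to 962.5, 378.7 and 615.6 CPM, and neuronal genes to 5917, 5684 and 5537 CPM. Astrocyte genes summed to 2046, 1610 and 1756 CPM, microglial genes to 177.8, 127.4 and 137.3 CPM and erythroid genes to 210.02, 308.2 and 339.7 CPM. Endothelial genes summed to 234.2, 190.4 and 193.9 CPM, and oligodendrocyte lineage genes to 524.1, 415.8 and 432.5 CPM. Hox genes were low throughout, with 3 of 13 passing the filter, and summed to 0.167 CPM in WT and 1.79 and 2.95 CPM in FGR. WT and FGR thus also differed in regional genes. The part of these differences in the values of the 9 genes was not tested.

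None of the 9 genes was called different between FGR and WT by edgeR's quasi-likelihood test with Benjamini-Hochberg adjustment (threshold 0.05), against 4.25% of the 25561 genes tested. That background divides into 1.66% higher and 2.59% lower in FGR. Scaling by library totals gave 332 higher and 1027 lower calls in place of 424 and 663. At an unadjusted p under 0.05 the test gave 1 of the 9, Tet1, against 18.3% of all genes. DESeq2 and limma-voom also called 0 of the 9, with 1 each at an unadjusted p under 0.05, against 1.40% and 4.24% of all genes called. Both FGR libraries lay above WT for 4 genes (Dnmt1, Tet1, Tet2 and Tet3), against 38.5% of all genes. Both lay below WT for 1 (Dnmt3a), against 38.2%, and the libraries lay on either side of WT for 4. The spread between samples came from the FGR pair alone, with 1 residual degree of freedom, so WT was assumed to vary like FGR. The test moderates that spread over genes, which raised the degrees of freedom behind each interval and p to between 13.02 and 14.02. Most of the spread assigned to a gene was thus borrowed from the other genes.

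**Figure D1:**
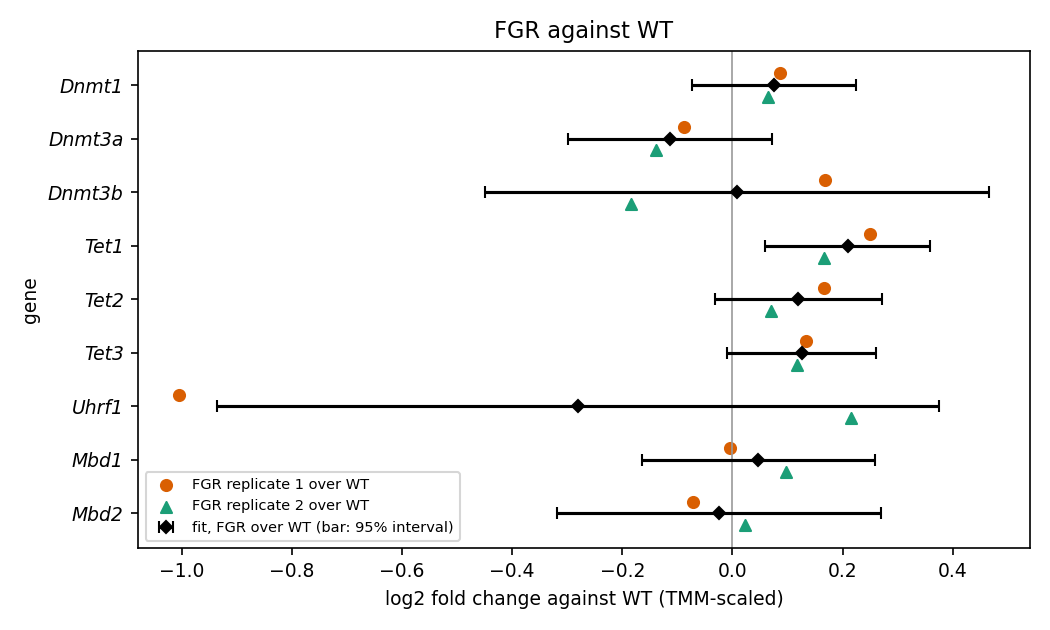
Log2 fold change of each gene against WT on TMM-scaled counts. Diamonds are the edgeR estimates with their 95% intervals, circles FGR replicate 1 and triangles FGR replicate 2. The 3 TET genes have both FGR libraries to the right of 0, and Uhrf1 has the replicates far apart, at -1.01 and 0.21.

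Per length, Dnmt3a and Dnmt1 were the most abundant of the 9 and Dnmt3b the least. These levels are the authors' RPKM, reads per kilobase of the deposited gene length scaled to the library total. Dnmt3a was at 19.6 RPKM in WT and at 18.015 and 17.3 RPKM in FGR replicates 1 and 2. Dnmt1 was at 17.8, 18.4 and 18.03 RPKM in the same order. Dnmt3a thus stood above Dnmt1 in WT and below it in both FGR libraries, and the ratio of Dnmt1 to Dnmt3a was 0.904 in WT and 1.03 ± 0.0145 in FGR (SD, n = 2). Mbd1 followed at 10.9, 10.6 and 11.3 RPKM.

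The TET genes lay in the middle of the order. Tet1 was at 6.74 RPKM in WT and 7.81 and 7.35 RPKM in FGR, Tet2 at 6.34, 6.93 and 6.46 RPKM, and Tet3 at 4.42, 4.73 and 4.66 RPKM. Mbd2 was at 3.74, 3.47 and 3.69 RPKM. Uhrf1 was at 2.77 RPKM in WT, 1.35 in replicate 1 and 3.12 in replicate 2 of FGR, and Dnmt3b at 0.615, 0.674 and 0.525 RPKM. The order from Mbd1 down to Dnmt3b was the same in all 3 libraries. No spread is known for WT, and between Tet1 and Tet2 the FGR means of 7.58 ± 0.327 and 6.70 ± 0.331 RPKM (SD, n = 2) were separated in both libraries.

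**Figure D2:**
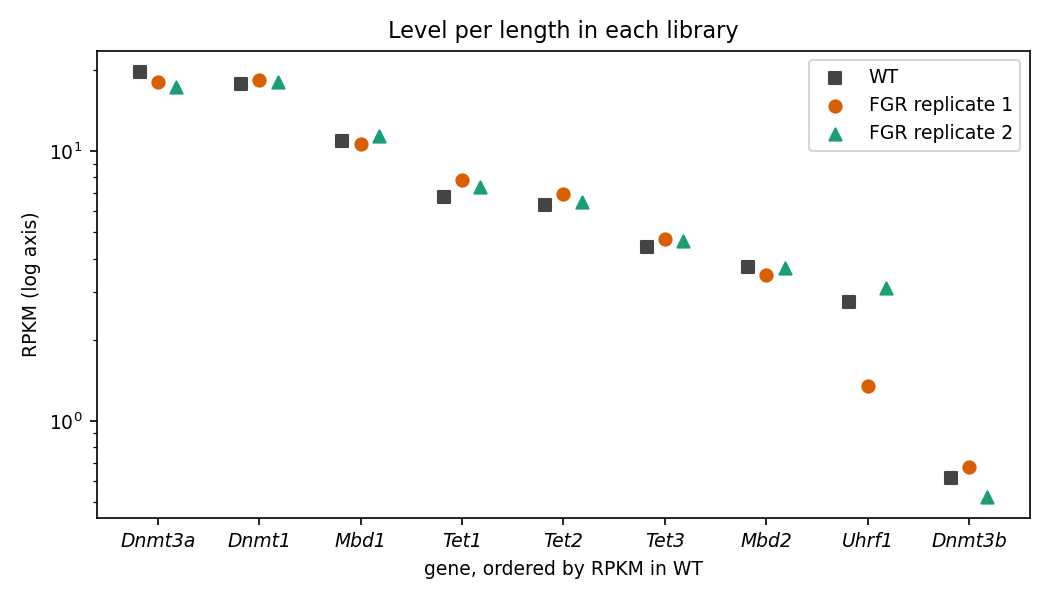
RPKM of each gene on a log axis in WT (squares), FGR replicate 1 (circles) and FGR replicate 2 (triangles), ordered by the WT level. Levels fall from 19.6 RPKM for Dnmt3a to 0.615 RPKM for Dnmt3b in WT, and the 3 libraries lie close together for each gene but Uhrf1 and, less so, Dnmt3b.

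Order by length depends on which length is used. The deposited length equalled the union of all exons in GENCODE M21 for 7 of the genes, which for Dnmt3a and Tet2 is 1.72 and 1.84 times the longest coding transcript. For Mbd1 the deposited length of 2689 bases was shorter than the longest coding transcript of 3920 bases, and the identifier carried an older version, so its place in the order is uncertain. Divided by the longest coding transcript instead, a choice made after the data had been seen, Dnmt3a was at 33.8, 31.0 and 29.8 and Dnmt1 at 22.3, 23.1 and 22.7 on the RPKM scale. Dnmt3a was then above Dnmt1 in every library. Tet2 was then above Tet1, at 11.6 against 6.90 in WT.

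Among the methyltransferases, Dnmt3a, the main new-site enzyme of the postnatal brain, was somewhat lower in both FGR libraries without passing the test. Its level was 321.2 CPM in WT against 302.1 and 291.9 CPM in FGR replicates 1 and 2. Both FGR values were below WT and 10.2 CPM apart. The log2 fold change was -0.11 ± 0.09 (SE), with an edgeR adjusted p of 0.546. The 95% interval of the fold ran from 0.813 to 1.05.

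Dnmt1, the maintenance enzyme, had 6924 counts in WT and 7916 and 6149 in FGR replicates 1 and 2. On the common scale it was at 128.6, 136.5 and 134.5 CPM, so both FGR libraries were slightly above WT and nearly equal to each other. The log2 fold change was 0.08 ± 0.07 (edgeR adjusted p = 0.632), with a fold of 0.9501 to 1.17 in its 95% interval. Dnmt3b, the new-site enzyme of the early embryo, had 166, 201 and 124 counts. Its 3.08, 3.47 and 2.71 CPM put WT between the FGR libraries. The 95% interval of its fold was wide, at 0.733 to 1.38. Dnmt3a exceeded Dnmt3b per length 32.0-fold in WT and 26.7-fold and 33.0-fold in FGR.

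All 3 TET genes were higher in both FGR libraries than in WT, as were 38.5% of all tested genes, and none passed the adjusted test. Scaling by library totals gave smaller log2 fold changes, of 0.17 for Tet1, 0.079 for Tet2 and 0.086 for Tet3. Tet1, which has a CXXC domain that binds unmethylated CG, had 5242 counts in WT, 6713 in replicate 1 and 4997 in replicate 2 of FGR. Its level was 97.4 CPM in WT against 115.7 and 109.3 CPM in FGR. Both FGR values lay above WT by more than the 6.42 CPM between them. The log2 fold change was 0.21 ± 0.07, with an edgeR adjusted p of 0.115. The 95% interval of the fold, which is not adjusted for the number of genes, ran from 1.04 to 1.28. Over 8 other settings and tools the adjusted p lay between 0.09997 and 0.482.

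Tet2, which lacks a CXXC domain of its own, was at 105.02 CPM in WT against 117.8 and 110.3 CPM in FGR. The FGR libraries were 7.53 CPM apart and the nearer one was 5.24 CPM above WT, so the gap to WT was no larger than the gap within FGR. Its edgeR adjusted p was 0.409. Tet3, the TET enzyme known from the zygote and from neurons, was at 72.6 CPM in WT against 79.6 and 78.7 CPM in FGR. The FGR values nearly coincided above WT, with a log2 fold change of 0.13 ± 0.06 (edgeR adjusted p = 0.315) and an interval of 0.993 to 1.20 for the fold. Counting error alone was small for these genes. The exact 95% intervals of the ratio to WT were 1.15 to 1.23 and 1.08 to 1.17 for Tet1 in FGR replicates 1 and 2, and 1.05 to 1.14 and 1.04 to 1.14 for Tet3. Such intervals compare libraries, not conditions.

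The make-up of the TET family differed little, with a slightly larger share of Tet1 in both FGR libraries. Per deposited length Tet1 took 38.5% of the summed TET level in WT and 39.9 ± 0.232% in FGR (SD, n = 2), Tet2 36.2% and 35.3 ± 0.430%, and Tet3 25.3% and 24.8 ± 0.662%. The sum itself was 17.5 RPKM in WT and 19.5 and 18.5 RPKM in FGR. The summed level of the 3 methyltransferase genes was 38.01 RPKM in WT and 37.05 and 35.9 RPKM in FGR.

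**Figure D3:**
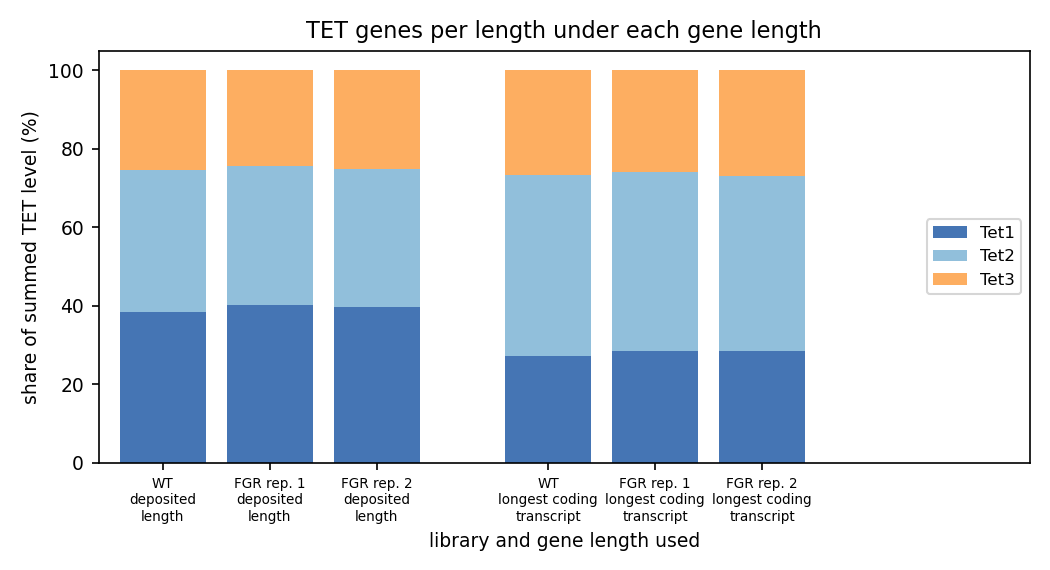
Share of the summed TET level (percent) taken by Tet1, Tet2 and Tet3 in each library, per deposited gene length (left group) and per longest coding transcript (right group). The WT share of Tet1 is 38.5% on the left and 27.2% on the right, while within each group the 3 libraries look alike.

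Uhrf1 was the member whose FGR libraries differed most. It had 624 counts in WT, 335 in replicate 1 and 615 in replicate 2 of FGR, or 11.6, 5.78 and 13.5 CPM. FGR replicate 1 was thus far below the other libraries, and FGR replicate 2 slightly above WT. The fold between the FGR libraries was 2.33 (exact 95% interval 2.04 to 2.67, counting error only). The log2 ratio to WT was -1.01 in replicate 1 and 0.21 in replicate 2, so either FGR library alone gives an opposite direction. Fitted together they gave -0.28 ± 0.31, with an edgeR adjusted p of 0.692. Of 5046 other genes with a mean level within 2-fold of that of Uhrf1, 14 (0.277%) had as large a gap between the FGR libraries, among them the Y-linked genes Kdm5d, Eif2s3y and Uty. For the other 8 members the share with as large a gap was 21.5% to 85.4%.

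Mitosis genes were also lower in FGR replicate 1 than in FGR replicate 2, but nearly all of them, unlike Uhrf1, were below WT in both. Mki67, the proliferation marker, was at 23.7 CPM in WT, 11.6 in replicate 1 and 23.4 in replicate 2 of FGR, and Top2a, a topoisomerase of mitotic chromosomes, at 31.9, 15.4 and 27.1 CPM. FGR replicate 1 was the lowest library for both. All 18 genes of a mitosis list were lower in FGR replicate 1 than in FGR replicate 2, against 50.8% of all tested genes lower. Their median ratio was 0.683, with a range of 0.461 to 0.995. Of these 18, 17 were below WT in both FGR libraries, against 38.2% of all tested genes. The median log2 ratio to WT of the 18 was -0.93 in replicate 1 and -0.24 in replicate 2, where Uhrf1 was at 0.21. The summed level of the 18 was 163.7 CPM in WT against 90.9 and 141.8 CPM in FGR. Of the 18, 1 (Ccnb1) was called lower in FGR, against 2.59% of all tested genes. Of 20 DNA replication genes 16 were lower in FGR replicate 1 than in FGR replicate 2, against 50.8% of all tested genes, with a median ratio of 0.883. Among the 20, 0 were called, against 4.25% of all tested genes, and 8 were below WT in both FGR libraries, against 38.2%. Their median log2 ratio to WT was -0.14 in replicate 1 and 0.04 in replicate 2. Their sums were 321.7, 293.9 and 337.3 CPM. Dnmt1 did not follow, at a ratio of 1.01 between the FGR libraries (exact 95% interval 0.981 to 1.05).

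**Figure D4:**
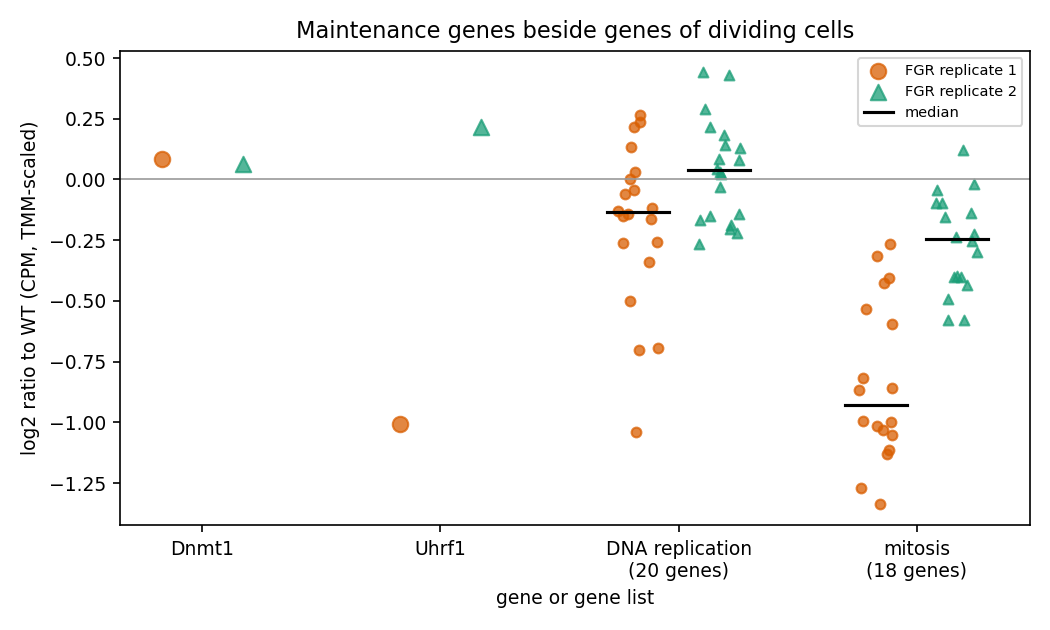
Log2 ratio to WT of Dnmt1, Uhrf1, 20 DNA replication genes and 18 mitosis genes, with FGR replicate 1 as circles, FGR replicate 2 as triangles and the median of each list as a bar. Uhrf1 in FGR replicate 1 (-1.01) lies near that library's mitosis median of -0.93. In FGR replicate 2 it lies at 0.21, above WT, and the mitosis median at -0.24, below WT. Dnmt1 lies just above 0 in both libraries.

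The sequence ahead of a start of Uhrf1, the member whose libraries differed most, is shown to place the gene. Promoter windows of 250 bases before to 50 bases after a start were taken from RefSeq on GRCm38.p6, and 7 of the 9 genes matched, with 12 windows. Mbd1 and Mbd2 had no entry. The Uhrf1 stretch lies at chr17:56303087-56303320 on the plus strand. It begins 250 bases before the first of 2 listed RefSeq starts and overlaps no exon of its gene in GENCODE M21. Capitals mark E2F-type letters (TTTGGCGC, TTTCCCGC or TTCCCGCC, the latter 2 of which overlap each other) and the CCAAT letters bound by NF-Y, searched on both strands.
Uhrf1: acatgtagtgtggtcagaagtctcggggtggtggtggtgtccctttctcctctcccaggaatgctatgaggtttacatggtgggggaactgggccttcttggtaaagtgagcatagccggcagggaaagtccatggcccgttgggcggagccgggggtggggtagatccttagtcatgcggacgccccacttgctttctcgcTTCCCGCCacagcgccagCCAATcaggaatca

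In the Uhrf1 stretch the E2F-type letters began 48 bases and CCAAT 30 bases before the start. Over the whole windows, E2F-type letters stood in 2 of the 12 member windows, 1 each of Uhrf1 and Dnmt1, against 3.21% of 32817 mouse windows. CCAAT stood in 5 of the 12, namely both of Uhrf1, 2 of the 3 of Dnmt1 and that of Tet3, against 37.4% of all windows. For each of Uhrf1 and Dnmt1, 1 window held both kinds of letters, and the expression values are not compared with them. The motifs were chosen after the sequences and values had been seen, and a match describes letters, not a bound site. CG dinucleotides, the substrate of the enzymes themselves, numbered 2 to 57 per member window, with a median of 7 over all windows. The Tet2 window held the 57, a number that 0.152% of all windows reached.

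Other markers also differed between the FGR libraries. A list of 12 cerebellar granule cell genes, drawn up after the values had been seen, summed to 218.2 CPM in WT, 203.1 in replicate 1 and 310.7 in replicate 2 of FGR. Cbln1 was highest in WT (36.6, 24.3 and 34.6 CPM) and Etv1 in FGR replicate 1 (11.4, 11.6 and 10.8 CPM). The others were highest in FGR replicate 2. As they were picked with their values known and no share over all genes was counted, their number is not a result. Barhl1 was nearly equal in the FGR libraries (25.53 and 25.57 CPM). Zic1 (60.8, 56.7 and 94.5 CPM) and Nfia (39.9, 38.4 and 52.2 CPM) were the most abundant of the list. Gabra6 was at 0.0186, 0.0345 and 0.0656 CPM. Fat2 of that list was at 6.07, 3.67 and 20.2 CPM. Atoh1, which marks granule cell precursors, was at 0.223, 0.103 and 0.897 CPM. Xist, expressed from the inactive X, was at 541.2, 591.1 and 1.71 CPM, and the Y-linked Kdm5d at 0, 0.0172 and 59.7 CPM. By Xist and Kdm5d, WT and FGR replicate 1 had a female pattern and FGR replicate 2 a male one. The FGR pair, from which the spread behind the p-values came, was thus of mixed pattern. The part of sex, of granule cells and of dividing cells in the Uhrf1 values was not tested. With 1 library of each pattern in FGR, these cannot be told apart.

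The reader genes Mbd1 and Mbd2 stayed close to WT in both FGR libraries. Mbd1, which can bind methylated and unmethylated CG and works with the histone methyltransferase Setdb1, was at 28.8 CPM in WT against 28.8 and 30.8 CPM in FGR. Its first FGR library equalled WT to within counting error, with a ratio of 0.997 (exact 95% interval 0.930 to 1.07). Its edgeR log2 fold change was 0.05 ± 0.10 (adjusted p = 0.859). Mbd2, which brings the NuRD repressor complex to methylated DNA, had 635 counts in WT, 651 in replicate 1 and 548 in replicate 2 of FGR. At 11.8, 11.2 and 11.99 CPM WT lay between the FGR libraries. The 95% interval of its fold was 0.802 to 1.21.

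Around these 9 genes, 3 of 74 tested genes in 5 lists of the pathway were called, all higher in FGR, and 0 were called lower, against 1.66% and 2.59% of all genes. Among 13 tested cofactors of the methyltransferases, 1 rose and 0 fell, with a median log2 fold change of 0.11, beside 0.01 over all tested genes. The one that rose was Zfp57, a zinc finger protein that keeps methylation at imprinted control regions, where it recruits Trim28. It was at 111.02 CPM in WT against 142.3 and 135.2 CPM in FGR, with both FGR values well above WT. The log2 fold change was 0.32 ± 0.07 (edgeR adjusted p = 0.0215), and DESeq2 did not call it (adjusted p = 0.0604).

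Some cofactors that work with Dnmt1 and Uhrf1 at the fork are named here after their values were seen. Cdca7, a partner of the remodeller Hells, was at 4.22 CPM in WT, 1.69 in replicate 1 and 3.89 in replicate 2 of FGR, with FGR replicate 1 lowest as for Uhrf1. Hells itself was at 13.2, 11.2 and 11.9 CPM, and Pcna, the clamp that holds Dnmt1 at the fork, at 49.1, 45.3 and 49.9 CPM. None of these was called (edgeR adjusted p = 0.334, 0.493 and 0.818). Usp7, of the same list, went the other way, at 148.0 CPM in WT, 153.4 in replicate 1 and 147.45 in replicate 2 of FGR. It was not called either (edgeR adjusted p = 0.910). Of the 13 tested cofactors, 5 were lower in FGR replicate 1 than in FGR replicate 2, against 50.8% of all tested genes.

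In the list of 21 genes for repair of oxidised cytosine and for TET partners, 1 rose and 0 fell, with a median of 0.06. Cxxc4, a CXXC protein described as a regulator of Tet2 and of Wnt signalling, was at 97.7 CPM in WT against 127.7 and 115.05 CPM in FGR. Both FGR values lay above WT by more than the gap between them (log2 fold change 0.31 ± 0.08, edgeR adjusted p = 0.0339). The call was lost in DESeq2 (adjusted p = 0.128) and with scaling by library totals (adjusted p = 0.0528). Of 18 tested genes of the S-adenosylmethionine and folate cycle, which supplies the methyl group, 1 rose and 0 fell, with a median of 0.03 that turned to -0.013 with library totals. That gene, Ahcyl1, is related to the adenosylhomocysteine hydrolase gene Ahcy but is known as a regulator of inositol trisphosphate receptors. It was at 114.5 CPM in WT against 146.8 and 154.8 CPM in FGR (log2 fold change 0.40 ± 0.07, edgeR adjusted p = 0.00728), and DESeq2 called it too (adjusted p = 0.00572).

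No gene was called among 9 other methyl-CpG readers (median 0.01, and -0.025 with library totals) or 13 NuRD subunits (median 0.06). Chd3, a NuRD helicase and the most abundant of the subunits per length, was at 379.9, 369.1 and 346.8 CPM (adjusted p = 0.685). Each list thus held 0 or 1 called gene, beside 4.25% called over all genes.

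**Figure D5:**
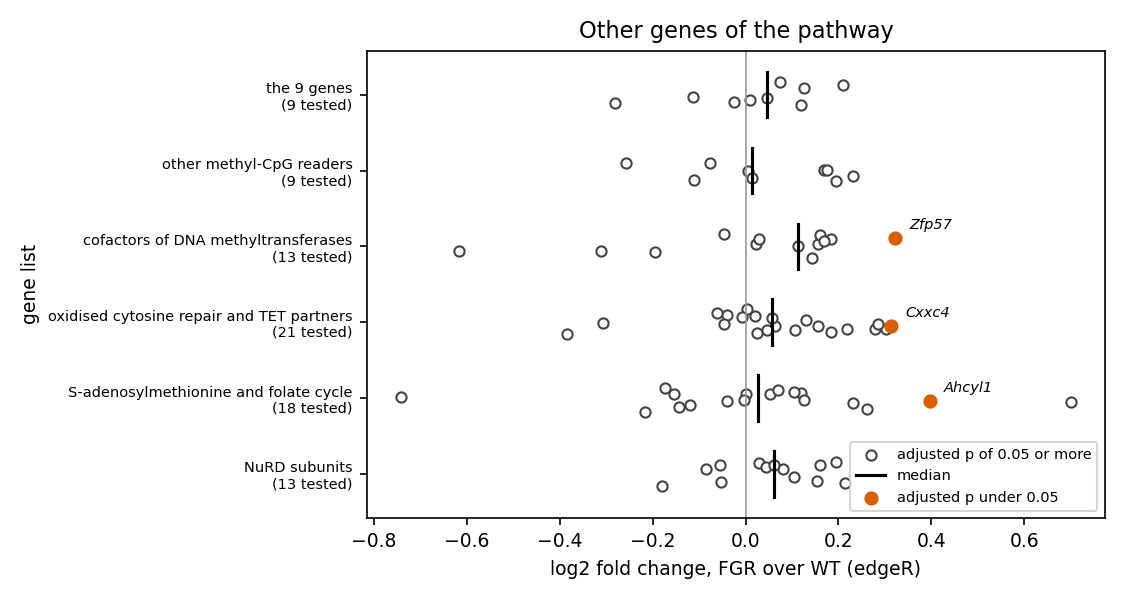
EdgeR log2 fold change (FGR over WT) of the tested genes of each list, with called genes filled and named and the median of each list as a bar. Zfp57, Cxxc4 and Ahcyl1 lie between 0.31 and 0.40, and the medians of all 6 groups lie between 0.01 and 0.11. With library totals the medians of the readers and of the methyl donor cycle fall below 0.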

How the data were processed

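Each library came as a table of gene identifier, symbol, raw read count, length and RPKM, deposited by the authors. The only tool named per the submitters' processing notes is HISAT2. Its version, the counting tool, strand setting, annotation and build were not given in the sources used here. The deposited counts are whole reads per gene. The deposited RPKM equalled count over length and total count to within 0.000498 percent. The test was edgeR 4.0.16 under R 4.3.3 (filterByExpr with minimum count 10, TMM scaling, two-sided quasi-likelihood test over all 25561 genes that passed). Standard errors are the log2 fold change over the square root of F. DESeq2 1.42.0, limma-voom (limma 3.58.1), a robust fit, other scalings and other filters were tried, and the script was tested on simulated data. Ratios between 2 libraries carry exact Clopper-Pearson 95% intervals, which cover counting error only. The rule for named genes took all 9 genes, the called genes of each pathway list and otherwise the most abundant one per length. A gene that this rule named is not reported here. The members and lists were chosen with earlier results of these data known. Promoter windows were credited to RefSeq (GRCm38.p6) and exons to GENCODE M21. The authors' build is not given, so no position of a read is implied.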

Additional observations from a re-analysis of the deposited data

How the results depend on the processing

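Over 8 alternative scalings, filters and tools, 0 of the 9 genes were called in any, and 69 of 72 log2 fold changes kept their direction. The 3 that did not were those of Dnmt3b, at -0.031 with library totals, -0.0065 without a filter and -0.0012 without abundant RNA and mitochondrial genes. The number of all genes called was 1087, against 2057 without a filter, 301 with a filter at a mean CPM of at least 1 and 357 in DESeq2. Leaving out either FGR library leaves no residual degree of freedom, so those values carry no test and no counts of calls. They ranged from -1.01 to 0.21 for Uhrf1, -0.19 to 0.17 for Dnmt3b, -0.0038 to 0.10 for Mbd1 and -0.072 to 0.023 for Mbd2, and the other 5 genes kept their direction. No paired analysis was possible because WT and FGR share only 1 replicate number. With library totals the list medians were -0.025 for other readers, -0.013 for the methyl donor cycle, 0.072 for cofactors and 0.016 for oxidised cytosine repair and TET partners, and the cofactor median was 0.11 in DESeq2. Leaving out 1 FGR library, medians ranged from 0.036 to 0.048 for other readers, from -0.0068 to 0.14 for the methyl donor cycle and from 0.011 to 0.078 for NuRD. DESeq2 called 0 cofactors and 0 TET partners. Library totals gave 0 TET partners and 2 genes of the methyl donor cycle. With the longest coding transcript as length, added after the data were seen, WT shares were 39.3% Dnmt1, 59.4% Dnmt3a and 1.28% Dnmt3b, and 27.2% Tet1, 45.998% Tet2 and 26.8% Tet3. The cause of these differences was not tested beyond the change of length itself. At 124 to 201 counts, Dnmt3b had the widest counting error of the 9 genes.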

Other observations

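Counting strand is not given, and 2 of the 9 genes share exon bases with an antisense gene in GENCODE M21. Dnmt3a shares 133 bases with Dnmt3aos, which had 18 counts in WT against 45 and 19 in FGR, where Dnmt3a had 17288 counts in WT. Tet2 shares 43 bases with Gm42567, which had 1, 5 and 1 counts. The shared bases are 0.799% and 0.255% of the exon length of Dnmt3a and Tet2.

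Among the 14 genes whose gap between the FGR libraries was as large as that of Uhrf1, at a like level, 7 were lowest in FGR replicate 1, as Uhrf1 was, against 35.5% of the 5046 genes at a like level. They included the histone genes Hist1h1b, at 21.98 CPM in WT against 8.79 and 21.3 CPM in FGR, and Hist1h3g, at 8.45, 3.00 and 7.66 CPM, whose messages are made as DNA is copied. The rest were Fat2, Gdf10, Neurod2, Pax6 and the small nucleolar RNA gene Snord17 (7.32, 5.98 and 17.1 CPM), with FGR replicate 2 highest in each. These genes were singled out after their values were seen, and Pax6 was at 8.90, 7.90 and 18.4 CPM. The 14 genes were taken for their gap and the 5046 were not, so the shares lowest in FGR replicate 1 come from unlike sets. The other 7 did not have FGR replicate 1 lowest. The Y-linked Kdm5d, Eif2s3y and Uty were at 37.8 to 59.7 CPM in FGR replicate 2 and at most 0.0517 CPM in the other libraries, and Neurod1 was highest in FGR replicate 2 too. Gm26992, Gm21887 and Erdr1 were lowest in FGR replicate 2.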
